A study of Mus musculus with 4 samples.

Results

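The 82 genes described here encode the proteins of the cytosolic ribosome. They were the rows of a single cell UMI count table whose gene symbol begins with Rpl or Rps and a digit, together with Rplp0, Rplp1, Rplp2 and Rpsa. The S6 kinase genes, Rpl7l1, Rps19bp1 and 8 rows with a symbol ending in -ps, which held 4525 UMIs, were left out. The members were 82 of 12596 rows, 49 of them of the large and 33 of the small subunit, and they held 509584 UMIs. Each UMI (unique molecular identifier) stands for 1 captured mRNA molecule, read at its 3′ end, so that values are given as CPM, UMI counts scaled to a common library total, with no scaling by length.

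The cells came from the colon lamina propria of 4 male C57/Bl6N mice. Of these, 2 mice (14 and 15) received diesel exhaust particles (DEP), 12 µg in 200 µL PBS, by gavage on 5 days per week for about 6 months, and 2 mice (2 and 3) received PBS alone. Cells positive for CD11b and for Ly6C or CD64 were sorted, which takes in blood-derived monocytes and the macrophages they become. Each mouse was loaded in 1 well of a 10x Genomics 3′ run and the experiment was done once, so that a mouse and its well cannot be told apart. For DEP against PBS, p-values measure the spread between 4 such wells. For the cell classes compared below, they measure how the difference within a well varies over the 4 wells.

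As background, the ribosome joins a small subunit, which reads the mRNA, and a large subunit, which forms the peptide bond, and most of their proteins are needed in equal number in each particle. Their mRNAs are among the most abundant of a cell and many begin with a stretch of pyrimidines, the 5′ terminal oligopyrimidine (TOP) sequence, through which the mTOR pathway controls their translation. Cells that grow or divide make more ribosomes. Monocytes entering the gut wall carry Ly6C and CCR2 and lose them as they turn into resident macrophages, which make the complement component C1q.

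The 943 cells deposited included 303 in which 3 or more marker genes of 1 other cell class were detected, and 286 of these met the B and plasma cell list, which holds immunoglobulin genes. They were left out, unequally between mice: 36 of 200 and 51 of 220 cells in PBS mice 2 and 3 and 78 of 189 and 138 of 334 cells in DEP mice 14 and 15. The cells left out had resident macrophage markers at 55702 to 61185 CPM in sum, near the 45845 to 62868 CPM of the cells kept, while immunoglobulin and J chain genes took 0.545 to 5.47% of their UMIs against 0.0318 to 0.0725%. With immunoglobulin genes taken off that list, 39 cells were left out, and counts under this choice, made after the data were seen, are given beside the main ones. Of the 640 cells kept, 157 were Plac8-high (at least 2 UMIs of Plac8, a gene of monocytes) and 504 C1q-high (C1qa, C1qb and C1qc together at least 0.5% of UMIs), 35 met both rules and 14 neither. The UMIs per mouse ranged from 438867 to 776260, and 1 cell barcode occurred in more than 1 mouse.

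Between the classes, the 35 cells in both were set aside, leaving 122 Plac8-high and 469 C1q-high cells. By mouse, the Plac8-high cells were then 16 and 24 in PBS mice 2 and 3 and 29 and 53 in DEP mice 14 and 15. Genes that did not define the classes followed their names. Ly6c2 was at 783 CPM on average in Plac8-high and 4.61 CPM in C1q-high cells, and Adgre1, the gene of the macrophage marker F4/80, at 177 and 548 CPM. Beside Plac8, 8 of 9 monocyte markers were higher in Plac8-high cells in 4 of 4 mice and Vcan in 3, and beside C1q, 9 of 9 markers of resident macrophages were lower in 4 of 4. The tyrosine kinase gene Mertk was at 0 in Plac8-high cells of 3 mice.

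Ribosomal protein mRNAs took a larger share of the UMIs of Plac8-high cells than of C1q-high cells in each of the 4 mice. In Plac8-high cells the share was 15.2% and 16.0% in PBS mice 2 and 3 and 15.7% and 14.97% in DEP mice 14 and 15. In C1q-high cells it was 10.8% and 12.4% in PBS mice 2 and 3 and 11.2% and 10.7% in DEP mice 14 and 15. The 2 sets of values did not overlap, and the difference within a mouse was 4.22 ± 0.412 percentage points (SD, n = 4), or 1.29 to 1.41 times. Exact binomial 95% intervals, which cover counting error only, were narrow (14.9% to 15.5% for Plac8-high cells of mouse 2, the smallest library), narrower than the spread between mice. Large subunit mRNAs made up 8.39 to 9.07% of UMIs in Plac8-high and 6.03 to 7.04% in C1q-high cells, small subunit mRNAs 6.53 to 6.93% and 4.64 to 5.35%. With immunoglobulin genes taken off the B and plasma list the difference was 3.93 percentage points, and with all deposited cells 4.31. No p is given for this sum over the members.

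The share of single cells showed the same order. Its median over cells was 15.1 to 16.1% in Plac8-high and 10.3 to 12.1% in C1q-high cells over the 4 mice. The middle 50% of C1q-high cells ran from 8.69% to 12.9% in mouse 2 and from 10.4% to 14.2% in mouse 3. The middle 50% of Plac8-high cells lay above these, from 14.5% to 17.1% and from 14.6% to 18.0%. In mouse 15 the ranges were also apart, 8.97% to 12.4% in C1q-high and 13.2% to 16.9% in Plac8-high cells. In mouse 14 they overlapped slightly, 9.10% to 13.40% in C1q-high and 13.36% to 17.6% in Plac8-high cells. Depth per cell overlapped between the classes: median UMIs per cell were 2909 to 3767 and 2691 to 4330.0, and with each cell thinned to 1000 UMIs the difference was 4.45 percentage points. Mitochondrial UMIs moved the other way, at 1.43 to 1.71% in Plac8-high and 1.81 to 2.40% in C1q-high cells. With these left out of the denominator, the difference was 4.22 percentage points.

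**Figure D1:**
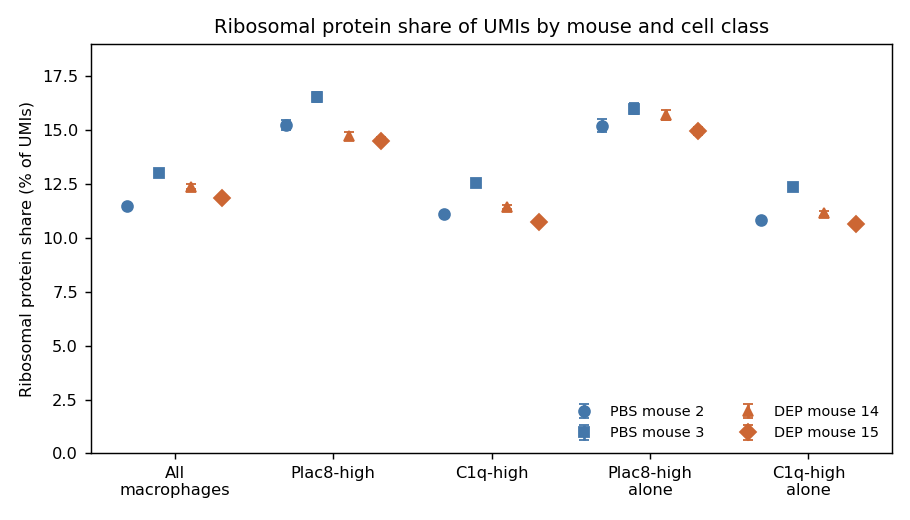
Share of UMIs from ribosomal protein genes (y axis, %) in 5 sets of cells (x axis), 1 point per mouse with its exact binomial 95% interval, PBS in blue and DEP in orange; "alone" leaves out cells that met both class rules. In every mouse the Plac8-high point lies above the C1q-high point, with 14.97 to 16.0% against 10.7 to 12.4% for the sets marked alone.

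Over the range of C1q, the share in the DEP mice was lower at each step of rising C1q, and in the PBS mice from the second step on. In cells with C1q under 0.5% of UMIs, whether or not they held Plac8, it was 14.8% and 16.2% in PBS mice 2 and 3 and 15.7% and 14.9% in DEP mice 14 and 15. Between 0.5% and 1% of C1q, where each mouse had 8 to 12 cells, it was 17.6% and 17.7% in PBS mice 2 and 3 and 13.2% and 13.3% in DEP mice 14 and 15, so that the PBS mice stood above the DEP mice there. Between 1% and 2% it was 11.5% and 12.7% in PBS mice 2 and 3 and 12.0% and 10.9% in DEP mice 14 and 15, and at 2% or more it was 9.47% and 10.9% in PBS mice 2 and 3 and 10.5% and 10.1% in DEP mice 14 and 15. The last range was the lowest of the 4 in every mouse. C1q mRNAs are part of the denominator, and without them the share at 2% or more was 9.70% to 11.1%. Mitochondrial UMIs in the second range were 3.70% and 4.22% in the PBS and 2.69% and 2.37% in the DEP mice, and their part in the result was not tested. These ranges were chosen after the data were seen and carry no test.

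**Figure D2:**
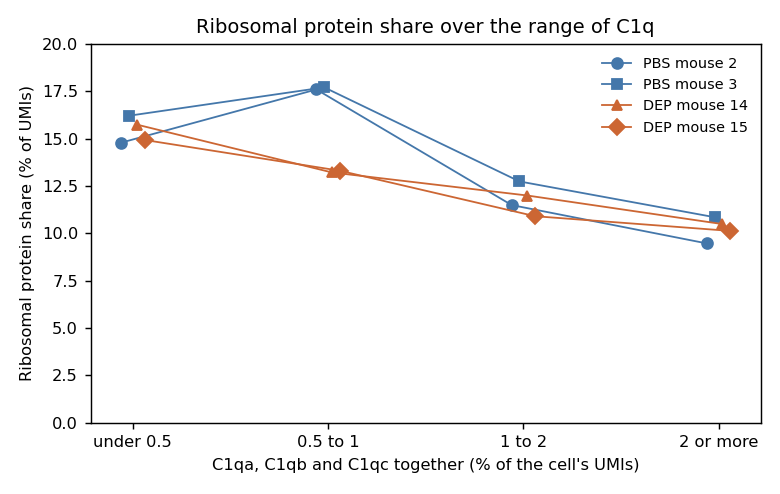
Share of UMIs from ribosomal protein genes (y axis, %) in cells grouped by the percentage of their UMIs from C1qa, C1qb and C1qc (x axis), 1 line per mouse, PBS in blue and DEP in orange. All 4 lines end at their lowest value, 9.47% to 10.9%, and the PBS lines rise to 17.6% and 17.7% in the second range, which holds 8 and 12 cells.

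Gene by gene, 81 of the 82 members were abundant enough to test, and the size of the difference varied among them. Not tested was Rpl3l, the muscle form of Rpl3, with 3 UMIs in all deposited cells. In plain CPM, 66 of 81 members were higher in Plac8-high cells in all 4 mice (22.4% of 5146 genes tested) and 2 were lower in all 4 (14.1% of genes). In edgeR the quasi-likelihood test had the mouse as a block and TMM scaling, fitted over all genes tested, the members among them. At a Benjamini-Hochberg adjusted p under 0.05, 10 members were higher (7.07% of genes) and 4 lower (11.1% of genes). The median log2 fold change was 0.14 over members and -0.14 over all genes, and 68 of 81 members lay above the latter. With scaling to library size alone all genes shifted upward, to a median of 0.18, and the members to 0.47; 55 members were then called higher (14.7% of genes) and 1 lower (7.58%). Of all genes called, 38.8% were higher with TMM and 66.0% with library size. The distance between members and all genes was 0.28 and 0.29 on the log2 scale in the 2 scalings. Log2 fold changes below are from the TMM fit, and without immunoglobulin genes in the B and plasma list 14 members were called higher (8.56% of genes) and 4 lower (11.7%), and with all deposited cells 16 (7.94%) and 2 (10.2%).

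The subunits had like medians, 0.15 over 48 large and 0.12 over 33 small subunit genes, with 6 and 4 genes called higher and 2 and 2 lower. The smallest adjusted p among members was that of Rplp1, in the stalk of the large subunit, where Rplp0 anchors dimers of the acidic proteins Rplp1 and Rplp2 that recruit elongation factors. Rplp0 was at 3602 and 3909 CPM in PBS mice 2 and 3 and 3474 and 3219.5 CPM in DEP mice 14 and 15 in Plac8-high cells and at 1909, 2019, 1888 and 1620.5 CPM in C1q-high cells of the same mice (log2 fold change 0.60 ± 0.12 SE, adjusted p = 2.26e-04). Every Plac8-high value lay above every C1q-high value. Rplp1 went the other way, at 981 and 1184 CPM in PBS mice 2 and 3 and 1263 and 1100.3 CPM in DEP mice 14 and 15 in Plac8-high cells and at 1542, 1666, 1636 and 1349 CPM in C1q-high cells (log2 fold change -0.77 ± 0.13 SE, adjusted p = 3.96e-05). It was the member with the lowest log2 fold change, and again the groups did not overlap. Rplp2 was at 1741, 1883, 1863 and 1596 CPM in Plac8-high and 1402, 1642, 1443 and 1349 CPM in C1q-high cells of mice 2, 3, 14 and 15, with no call (log2 fold change -0.055 ± 0.12 SE, adjusted p = 0.828). Its fold change turned to 0.28 with library size alone.

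Ratios within a cell class do not depend on the scaling. The Rplp1 to Rplp0 ratio was 0.272 to 0.364 in Plac8-high and 0.808 to 0.867 in C1q-high cells over the 4 mice, and the Rplp2 to Rplp0 ratio 0.482 to 0.536 and 0.735 to 0.833, both lower in Plac8-high cells in 4 of 4 mice. Rplp1 made up 0.731% of all ribosomal protein UMIs in Plac8-high and 1.38% in C1q-high cells. The proportion of stalk mRNAs to each other thus differed between the classes. Over all members, 19 of 81 held a larger part of the ribosomal protein UMIs in Plac8-high cells in all 4 mice and 17 a smaller part in all 4. Parts of 1 total must balance, so these counts are descriptions and no share over all genes applies to them. Rplp0 (ENSMUSG00000067274) spans chr5:115559467-115563727 on the plus strand, Rplp1 (ENSMUSG00000007892) chr9:61913284-61914542 on the minus strand and Rplp2 (ENSMUSG00000025508) chr7:141447370-141451585 on the plus strand of GRCm38.

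**Figure D3:**
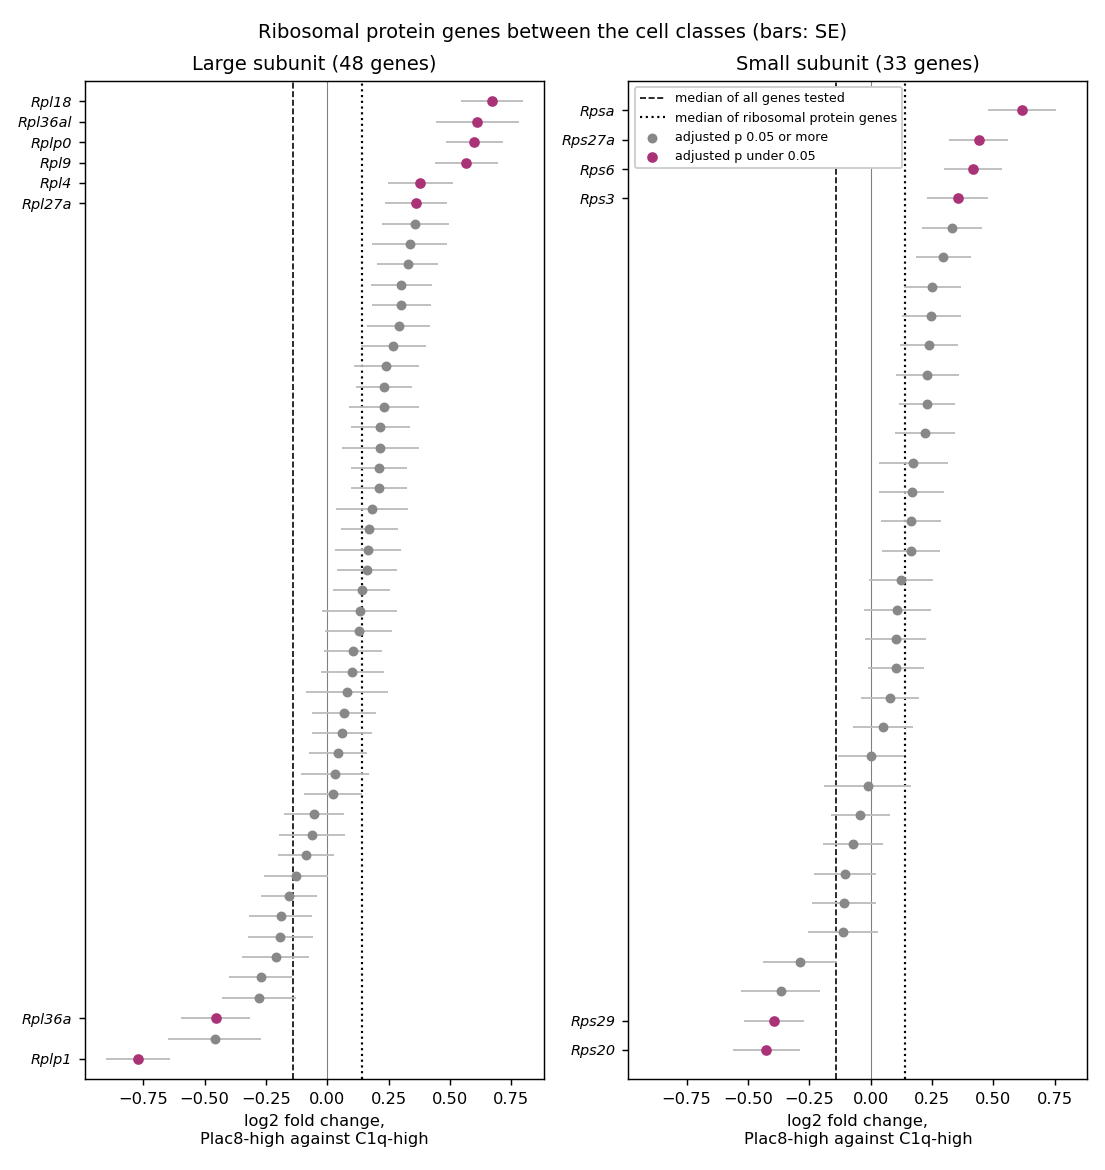
Log2 fold change of each tested ribosomal protein gene between Plac8-high and C1q-high cells (x axis) with its SE, large subunit genes on the left and small subunit genes on the right, ordered by value; coloured points, which alone carry a name, passed an adjusted p of 0.05 in edgeR with TMM. The dotted median of the members (0.14) lies to the right of the dashed median of all genes (-0.14), and Rplp1 lies far to the left.

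Other large subunit genes called higher were Rpl18, Rpl9, Rpl4 and Rpl27a, which encode core proteins of the particle, and Rpl36al. Rpl18 was at 1721 and 1706 CPM in PBS mice 2 and 3 and 1579 and 1651 CPM in DEP mice 14 and 15 in Plac8-high cells and at 845, 857, 804 and 804 CPM in C1q-high cells (log2 fold change 0.67 ± 0.13 SE, adjusted p = 1.42e-04). The lowest Plac8-high value of Rpl18 lay far above the highest C1q-high value. Rpl9 was at 2462, 2168, 2495 and 1915 CPM in Plac8-high and 1197, 1289, 1098 and 1210.1 CPM in C1q-high cells of mice 2, 3, 14 and 15 (log2 fold change 0.57 ± 0.13 SE, adjusted p = 0.00119). The groups did not overlap for this gene either. Rpl4 was at 1641, 1539.8, 1653 and 1202 CPM in Plac8-high and 908, 931, 873 and 919.9 CPM in C1q-high cells (log2 fold change 0.38 ± 0.13 SE, adjusted p = 0.0409). Rpl27a was at 1781, 2014, 2200.3 and 1922 CPM and 1219.7, 1300.0, 1225 and 1151 CPM (log2 fold change 0.36 ± 0.13 SE, adjusted p = 0.0425). Both were near the threshold, and in both the lowest Plac8-high value was above the highest C1q-high value.

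Small subunit genes called higher were Rpsa, Rps27a, Rps6 and Rps3. Rpsa, which is also known as the laminin receptor, was at 1321 and 1173 CPM in PBS mice 2 and 3 and 1095 and 924 CPM in DEP mice 14 and 15 in Plac8-high cells and 545, 636, 579.9 and 540.2 CPM in C1q-high cells (log2 fold change 0.62 ± 0.14 SE, adjusted p = 0.00112), with no overlap. Rps27a, made as a fusion with ubiquitin, was at 3136 ± 177 CPM and 1843 ± 244 CPM (SD, n = 4; log2 fold change 0.44 ± 0.12 SE, adjusted p = 0.00835). Rps6, the protein that S6 kinase phosphorylates, was at 2712 ± 256 and 1609.8 ± 168 CPM (log2 fold change 0.42 ± 0.12 SE, adjusted p = 0.0113). Rps3, at the mRNA entry of the small subunit, was at 2702, 2274, 2400.3 and 1841 CPM in Plac8-high and 1566, 1501, 1298 and 1299.7 CPM in C1q-high cells (log2 fold change 0.35 ± 0.12 SE, adjusted p = 0.041). All 4 genes were higher in Plac8-high cells in 4 of 4 mice.

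The other genes called lower were Rpl36a (log2 fold change -0.46 ± 0.14 SE, adjusted p = 0.0202), Rps20 (log2 fold change -0.43 ± 0.14 SE, adjusted p = 0.0261) and Rps29 (log2 fold change -0.39 ± 0.12 SE, adjusted p = 0.0223). In plain CPM the classes overlapped for these 3 genes. Rps20 was at 881, 912, 758 and 781 CPM in Plac8-high and 961, 946, 869.9 and 788 CPM in C1q-high cells of mice 2, 3, 14 and 15, lower in each mouse by less than the range between mice. Rps29 was at 1481, 1966, 2148 and 2730.5 CPM in Plac8-high and 1605, 2329, 2095 and 2616 CPM in C1q-high cells of mice 2, 3, 14 and 15, lower in 2 and higher in 2 of the mice. With library size alone these 3 genes had log2 fold changes of -0.12, -0.093 and -0.06 and lost their calls. With TMM factors taken from genes that are not members, Rps20 and Rps29 lost their calls as well. In that fit 12 members were called higher (7.77% of genes) and 2 lower (10.6%). Over the 19 settings tried for this comparison, Rpl18 and Rplp0 were called higher and Rplp1 lower in 19, Rpl9 in 18 and Rpsa in 17, while Rpl27a was called in 8, Rpl4 in 9, Rps20 in 9, Rps3 in 10, Rps29 in 10, Rpl36a in 11, Rps27a in 14, Rpl36al in 14 and Rps6 in 15.

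**Figure D4:**
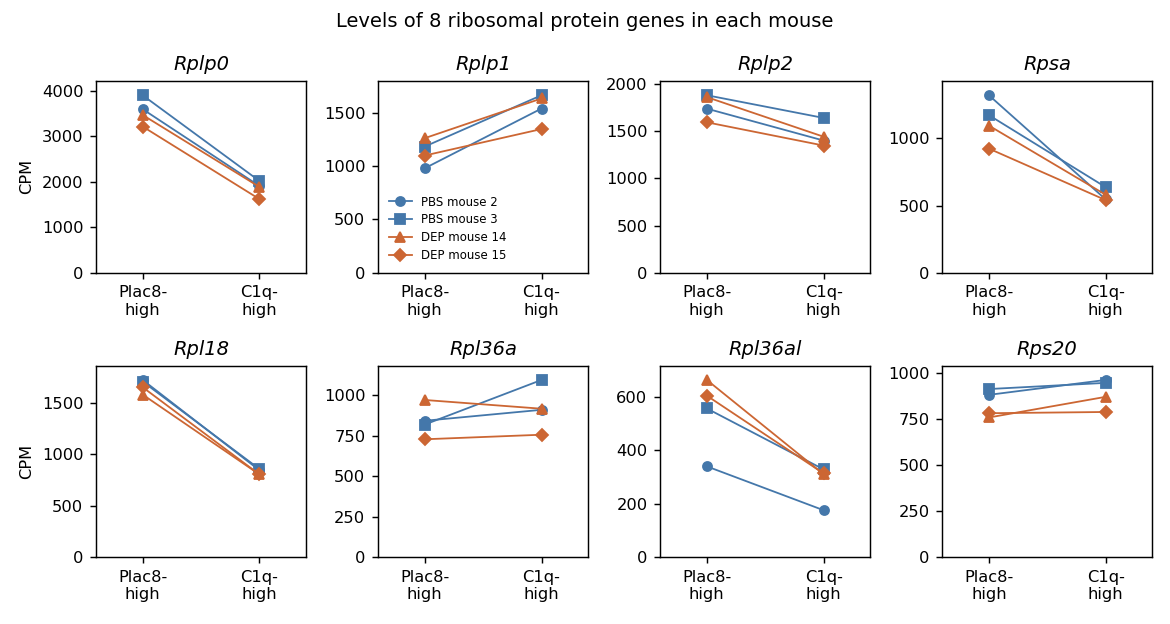
CPM (y axes, each starting at 0) of 8 ribosomal protein genes in Plac8-high and C1q-high cells without the cells in both classes, with 1 line per mouse, PBS in blue and DEP in orange. Rplp0, Rpsa, Rpl18 and Rpl36al fall from left to right in all 4 mice and Rplp1 rises in all 4, while Rpl36a goes up in 3 mice and down in DEP mouse 14.

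Paralogs and their parent genes differed between the classes in some pairs. Rpl36al, an intronless copy that encodes almost the same protein as Rpl36a, was at 340.2, 557, 663 and 605 CPM in Plac8-high and 176, 329, 311 and 314 CPM in C1q-high cells of mice 2, 3, 14 and 15 (log2 fold change 0.61 ± 0.17 SE, adjusted p = 0.00865). Rpl36a itself was at 841, 817, 969 and 727 CPM and 908, 1092, 915 and 755 CPM. The Rpl36al to Rpl36a ratio was higher in Plac8-high cells in 4 of 4 mice, 0.405 to 0.832 against 0.194 to 0.416. Rpl22l1 against Rpl22 went the other way in 4 of 4 mice, with 0.788 to 1.59 in Plac8-high and 1.31 to 1.72 in C1q-high cells, although neither gene was called (Rpl22l1, log2 fold change -0.28 ± 0.15 SE, adjusted p = 0.233, and Rpl22, log2 fold change 0.34 ± 0.15 SE, adjusted p = 0.136). Rps27l and the retrocopy Rps27rt stood to Rps27 at 0.0906 to 0.143 and 0.302 to 0.402 in Plac8-high and at 0.116 to 0.163 and 0.382 to 0.395 in C1q-high cells, which overlapped. Rpl3 was not called (log2 fold change -0.19 ± 0.13 SE, adjusted p = 0.372). Of the 82 members, 75 share at least 1 stretch of 60 bases near their 3′ end with another annotated gene, and reads that fit more than 1 gene could be lost or assigned to a copy, so levels of single members, Rps27 and Rps27rt among them, are uncertain.

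Among the most abundant members over all macrophages were Rpl41 at 3968 CPM, Rps14 at 3270.1, Rpl13 at 3249 and Rps19 at 3222 CPM (means of 4 mice), and none of these 4 was called between the classes with TMM. The least abundant of those tested were Rpl12 at 324, Rps27l at 324, Rpl36al at 342, Rpl5 at 385 and Rpl22 at 534 CPM. Rpl41, which encodes a very short basic protein, was at 3282, 4702, 4674 and 4333 CPM in Plac8-high and 2991, 4434, 4122 and 3508 CPM in C1q-high cells of mice 2, 3, 14 and 15 (log2 fold change -0.16 ± 0.11 SE, adjusted p = 0.406), and its fold change turned to 0.18 with library size alone.

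To show what lies at the start of genes that differed between the classes, windows of 25 bases on either side of the annotated start were read from RefSeq (GRCm38.p6), 5′ to 3′ on the sense strand, for 4 genes called higher and with a run of 8 or more C or T (in capitals) and for 4 genes without such a run. The first 7 below were called higher in Plac8-high cells and Rpl36a was called lower.
Rpl18, chr7:45718046-45718095, plus strand: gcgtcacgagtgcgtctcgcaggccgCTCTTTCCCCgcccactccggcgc
Rpl4, chr9:64173362-64173411, plus strand: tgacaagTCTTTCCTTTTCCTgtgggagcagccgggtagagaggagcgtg
Rpl27a, chr7:109519170-109519219, plus strand: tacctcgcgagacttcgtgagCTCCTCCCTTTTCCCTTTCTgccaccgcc
Rps6, chr4:86857343-86857392, minus strand: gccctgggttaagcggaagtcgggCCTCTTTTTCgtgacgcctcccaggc
Rplp0, chr5:115559442-115559491, plus strand: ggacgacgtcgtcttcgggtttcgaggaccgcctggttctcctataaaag
Rpsa, chr9:120127741-120127790, plus strand: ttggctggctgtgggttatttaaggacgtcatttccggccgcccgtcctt
Rpl36al, chr12:69184043-69184092, minus strand: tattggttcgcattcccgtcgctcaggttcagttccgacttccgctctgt
Rpl36a, chrX:134585629-134585678, plus strand: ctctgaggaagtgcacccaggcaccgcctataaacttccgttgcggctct
An entry was found for 62 of the 82 members, and 32 of these (51.6%) held such a run on the sense strand, against 22.3% of 27025 genes. Of the 10 members called higher, 9 had an entry and 4 a run. Of the 4 called lower, 1 had an entry, Rpl36a, with no run. Of the 67 not called, 51 had an entry and 28 a run. The runs of the 4 genes differ in place, in Rpl4 upstream of the annotated start and in Rpl18 just after it. A run is a match of letters and not a mapped TOP sequence, and a window without one says only that these letters are not in it.

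Upon DEP exposure, no ribosomal protein gene passed the test, and the share of these genes overlapped between DEP and PBS mice over all macrophages. Over all macrophages their share was 11.5% and 13.0% in PBS mice 2 and 3 and 12.4% and 11.8% in DEP mice 14 and 15, 12.2% ± 1.09 upon PBS and 12.1% ± 0.376 upon DEP (SD, n = 2 each). The groups overlapped, with PBS mouse 3 highest and PBS mouse 2 lowest, and without either of DEP mouse 15 or PBS mouse 3 the direction turned. The difference, DEP minus PBS, was -0.124 percentage points, and it depended on the cells left out. It was -0.648 with immunoglobulin genes taken off the B and plasma list, where the shares were 11.5% and 13.1% in PBS mice and 11.8% and 11.5% in DEP mice, and -0.792 with all deposited cells, where they were 11.7% and 13.1% in PBS mice and 11.9% and 11.3% in DEP mice. The groups overlapped under both choices. In the cells left out the share was 12.7% and 13.2% in PBS mice 2 and 3 and 11.5% and 10.9% in DEP mice 14 and 15, lower in both DEP mice. The mix of cells also differed, since 29 of 164 and 28 of 169 cells were Plac8-high in the PBS mice and 42 of 111 and 58 of 196 in the DEP mice, and the 10 monocyte markers summed to 1112 and 1400.3 CPM in PBS and 3035 and 2919.8 CPM in DEP mice. The part of this in the result was not tested.

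Within a class, cells in both classes counted in each. In Plac8-high cells the share was 15.2% and 16.6% in PBS mice 2 and 3 and 14.7% and 14.5% in DEP mice 14 and 15, lower in both DEP mice. In C1q-high cells it was 11.1% and 12.5% in PBS mice 2 and 3 and 11.4% and 10.7% in DEP mice 14 and 15, with PBS mouse 2 between the DEP mice. Among the Plac8-high cells, those that also met the C1q rule differed most, with 13 and 4 cells in the PBS mice at 15.3% and 19.5% and 13 and 5 cells in the DEP mice at 13.0% and 12.0%. Without them the Plac8-high shares were 15.2% and 16.0% in PBS mice 2 and 3 and 15.7% and 14.97% in DEP mice 14 and 15, which overlapped. With a Ccr2 UMI in place of Plac8 they were 15.3% and 15.8% in PBS mice and 15.8% and 14.6% in DEP mice, which overlapped as well. Mitochondrial UMIs in the cells of both classes were 3.05% and 2.93% in PBS and 2.16% and 1.60% in DEP mice. The part of this in the result was not tested.

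Each member was tested between DEP and PBS. Over all macrophages, 0 of 81 members were called by edgeR (0.329% of 5163 genes), with 3 at an unadjusted p under 0.05 (7.86% of genes) and 0 by DESeq2. In Plac8-high cells 0 of 81 were called (0% of 4859 genes), 4 at an unadjusted p under 0.05 (5.49% of genes) and 0 by DESeq2. In C1q-high cells 0 of 81 were called (0.0193% of 5177 genes), 3 unadjusted (6.14% of genes) and 0 by DESeq2. The median SE of a member's log2 fold change was 0.14, 0.20 and 0.14 in the 3 comparisons. The fold changes ran from -0.40 to 0.48, from -0.59 to 0.42 and from -0.41 to 0.33, in the order of the comparisons.

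Most members had small negative fold changes. Over all macrophages 60 of 81 had a log2 fold change below 0, against 50.6% of all genes, with a median of -0.073 against -0.0058. In Plac8-high cells 57 of 81 were below 0, against 47.9% of genes, with a median of -0.11 against 0.031. In C1q-high cells 69 of 81 were below 0, against 49.2% of genes, with a median of -0.14 against 0.007. These comparisons share mice and cells, and the members move together with the share, so the counts are descriptions. In CPM, 26 members were lower in both DEP mice than in both PBS mice over all macrophages (16.5% of genes) and 7 higher (22.3%). In Plac8-high cells 39 were lower (17.4%) and 4 higher (18.2%), and in C1q-high cells 43 were lower (17.3%) and 1 higher (18.4%). Without the cells in both classes 20 were lower (17.4% of genes) and 12 higher (18.8%) among Plac8-high cells and 39 (18.0%) and 0 (17.3%) among C1q-high cells, and the median over members in Plac8-high cells was 0.04 against 0.043 over all genes. Without immunoglobulin genes in the B and plasma list, 44 members were lower in both DEP mice (17.0% of genes) and 1 higher (19.8%) over all macrophages. In Plac8-high cells these were 39 (15.8%) and 2 (21.3%), and in C1q-high cells 49 (17.2%) and 0 (18.4%).

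**Figure D5:**
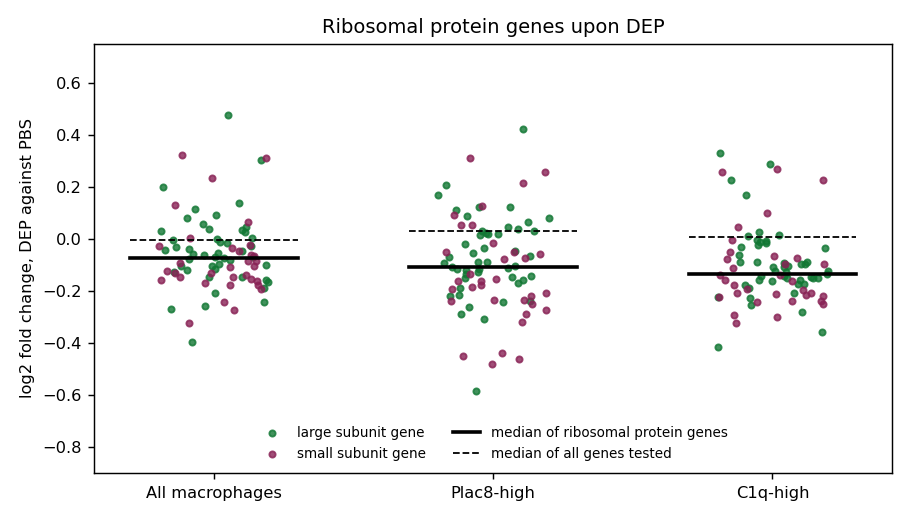
Log2 fold change between DEP and PBS (y axis) of the 81 tested ribosomal protein genes in 3 sets of cells (x axis), 1 point per gene with random sideways shift, large subunit in green and small subunit in purple. The solid median of the members lies below the dashed median of all genes in each set, at -0.073, -0.11 and -0.14, and no point passed the test.

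Members whose DEP and PBS mice did not overlap showed sizes as follows, none of them past the threshold in edgeR. Over all macrophages, Rpl36al was at 199 and 361 CPM in PBS mice 2 and 3 and at 403 and 405 CPM in DEP mice 14 and 15 (log2 fold change 0.48 ± 0.21 SE, adjusted p = 0.579). The low value of PBS mouse 2 stood apart from the other 3 mice, which were alike. The same mouse was low for Rps27, at 1706 CPM against 2735 in PBS mouse 3 and 2892 and 2827 in the DEP mice (log2 fold change 0.32 ± 0.16 SE, adjusted p = 0.650), and for Rps27rt, at 637 CPM against 1076, 1109.7 and 1086 (log2 fold change 0.31 ± 0.18 SE, adjusted p = 0.736). In these 3 genes PBS mouse 2 was the lowest, and without it the log2 fold change was 0.13 for Rpl36al, 0.026 for Rps27 and for Rps27rt -0.009. The low value of PBS mouse 2 was not particular to them. This mouse was also the lowest for other members, among them Rpl37, Rpl37a, Rpl38, Rpl39 and Rpl41, but the highest for Rpl10.

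Lower in both DEP mice were Rpl22l1, the paralog of Rpl22, and the small subunit genes Rps20 and Rps12. Rpl22l1 was at 808 and 827 CPM in PBS mice 2 and 3 and at 669.9 and 611 CPM in DEP mice 14 and 15 (log2 fold change -0.40 ± 0.15 SE, adjusted p = 0.393). Rps20 was at 967 and 974 CPM in PBS mice 2 and 3 and at 825 and 777 CPM in DEP mice 14 and 15 (log2 fold change -0.32 ± 0.14 SE, adjusted p = 0.573). Rps12 was at 685 and 736 CPM in PBS mice 2 and 3 and at 652 and 563 CPM in DEP mice 14 and 15 (log2 fold change -0.27 ± 0.15 SE, adjusted p = 0.708). The PBS mice lay close to each other for these 3 genes.

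In Plac8-high cells the lowest were Rpl30, Rps20 and Rps4x, the last an X-linked small subunit gene. Rpl30 was at 719.6 and 1008 CPM in PBS mice 2 and 3 and at 493 and 636 CPM in DEP mice 14 and 15 (log2 fold change -0.59 ± 0.25 SE, adjusted p = 0.887). Rps20 was at 998 and 1088 CPM in PBS mice 2 and 3 and at 722 and 745 CPM in DEP mice 14 and 15 (log2 fold change -0.48 ± 0.21 SE, adjusted p = 0.887). Rps4x was at 2716 and 2416 CPM in PBS mice 2 and 3 and at 1809 and 1856 CPM in DEP mice 14 and 15 (log2 fold change -0.46 ± 0.19 SE, adjusted p = 0.887). Higher in both DEP mice were Rpl36al (log2 fold change 0.42 ± 0.27 SE, adjusted p = 0.929), Rpl36 (log2 fold change 0.21 ± 0.19 SE, adjusted p = 0.944) and Rpl21 (log2 fold change 0.17 ± 0.20 SE, adjusted p = 0.947). The value for Rpl36 was 1497 and 1737 CPM in the PBS and 1917 and 1753 CPM in the DEP mice, and without immunoglobulin genes in the B and plasma list its log2 fold change was -0.037. In C1q-high cells the lowest were Rpl22l1, Rpl13a, which encodes a large subunit protein with a known role in translational silencing in monocytes, and Rps27a. Rpl22l1 was at 826 and 813 CPM in PBS mice 2 and 3 and at 659 and 587 CPM in DEP mice 14 and 15 (log2 fold change -0.41 ± 0.15 SE, adjusted p = 0.676). Rpl13a was at 1431 and 1510.0 CPM in PBS mice 2 and 3 and at 1205 and 1117 CPM in DEP mice 14 and 15 (log2 fold change -0.36 ± 0.14 SE, adjusted p = 0.749). Rps27a was at 2094 and 2085 CPM in PBS mice 2 and 3 and at 1756 and 1619.9 CPM in DEP mice 14 and 15 (log2 fold change -0.33 ± 0.13 SE, adjusted p = 0.759). Rpl38 was the 1 member higher in both DEP mice there (log2 fold change 0.29 ± 0.17 SE, adjusted p = 0.846). It was at 525 and 778 CPM in the PBS and 779 and 833 CPM in the DEP mice, so that PBS mouse 3 and DEP mouse 14 were alike, and without PBS mouse 2 its log2 fold change was 0.044.

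The DEP effect was not shown to differ between the classes for any member. In the interaction of DEP and class 0 of 81 were called by edgeR (0.35% of 5146 genes), with 3 at an unadjusted p under 0.05 (5.67% of genes) and 0 by DESeq2. The interaction, which is the DEP effect in Plac8-high minus that in C1q-high cells with cells in both set aside, had a median of 0.15 over members and 0.071 over all genes, with a median SE of 0.23. For the stalk genes the interaction was 0.10 ± 0.20 SE for Rplp0, 0.32 ± 0.24 for Rplp1 and 0.15 ± 0.22 for Rplp2 on the log2 scale, and -0.12 ± 0.26 for Rpsa, none of them called. In the fits within a class, which count the cells in both classes in each and so do not subtract to these values, the log2 fold change upon DEP was -0.22 in Plac8-high and -0.19 in C1q-high cells for Rplp0 and -0.19 and -0.17 for Rplp1. With those cells set aside, Rplp1 in Plac8-high cells was at 981 and 1184 CPM in PBS mice 2 and 3 and 1263 and 1100.3 CPM in DEP mice 14 and 15, which overlapped.

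Genes that work with the ribosome were counted beside the members, in the comparison of the classes. Of 29 tested translation factors and other TOP mRNAs, 9 were called higher in Plac8-high cells (7.07% of all genes) and 1 lower (11.1% of all genes), with a median log2 fold change of 0.17. Eif3h, a subunit of the initiation factor eIF3, was at 495 to 700.5 CPM in Plac8-high cells against 182 to 244 CPM in C1q-high cells (log2 fold change 1.11 ± 0.17 SE, adjusted p = 6.49e-06). Btf3, which binds nascent chains at the exit of the ribosome, was at 769 to 1341 CPM in Plac8-high cells against 458 to 516 CPM in C1q-high cells (log2 fold change 0.74 ± 0.15 SE, adjusted p = 3.01e-04), and Eif5a, which helps the ribosome over stalls, at 711 to 788 CPM in Plac8-high cells against 307 to 388 CPM in C1q-high cells (log2 fold change 0.78 ± 0.16 SE, adjusted p = 3.49e-04). The 1 called lower was Eif2s3x (log2 fold change -2.28 ± 0.72 SE, adjusted p = 0.0243), with at most 11.8 CPM in Plac8-high cells. Eef1a1, Tpt1 and Npm1, classical TOP mRNAs, were not called (-0.19, -0.16 and -0.068 on the log2 scale). Fau (0.15), a ribosomal protein gene whose symbol the rule does not take in, and the small subunit protein gene Rack1 (-0.038) were not called either.

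Of genes for ribosome assembly, 0 of 25 tested were called by edgeR, with a median of -0.11 against -0.14 over all genes. Of 10 tested regulators of ribosomal protein production, such as the mTOR pathway, 0 were called, with a median of -0.027. In the mitochondrial ribosome, 3 of 69 genes were higher (Mrpl33, Mrpl30 and Mrpl20) and 0 lower, both under the share among all genes, with a median of -0.03, and Mrpl33 alone was at 295 to 746 CPM in Plac8-high cells against 132 to 157 CPM in C1q-high cells (log2 fold change 1.57 ± 0.20 SE, adjusted p = 2.07e-07). The transcripts of the mitochondrial genome went the other way, with 11 of 12 lower, above the 11.1% of all genes, 0 higher and a median of -0.91. Of 18 genes that respond to tissue dissociation, 6 were lower (11.1% of all genes), such as Fosb (log2 fold change -1.46 ± 0.19 SE, adjusted p = 5.73e-07). Only Nr4a1 was higher (7.07% of all genes; log2 fold change 1.35 ± 0.21 SE, adjusted p = 1.17e-05). With library size alone Junb (-0.20) and Dusp1 (-0.079) lost their calls, while Ier2 (0.50) and Hspa8 (0.39) were called higher. The part of mitochondrial and dissociation transcripts in the differences of the members was not tested. Upon DEP, 0 genes of these lists were called in all macrophages, Plac8-high or C1q-high cells, or in the interaction, and the mitochondrial transcripts had medians of -0.30, -0.24 and -0.19 in the 3 sets.

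Markers of other cells were summed in both classes. Cells in which 3 or more markers of the B and plasma, T or epithelial list were detected had been left out beforehand. Low sums of these lists therefore follow in part from that filter and do not show purity. B and plasma cell markers summed to 340.2 to 889.8 CPM in Plac8-high and 373 to 705 CPM in C1q-high cells, with 8 and 3 of 13 at 0, the B cell gene Pax5 in both. T cell markers summed to 27.2 CPM at most in Plac8-high and 93.2 in C1q-high cells, and the 10 epithelial markers were all at 0 in Plac8-high cells. Dendritic cell markers, 7 of 10 in the table, summed to 40.0 to 360.0 and 125 to 211 CPM, and the 3 neutrophil markers in the table to 95.1 to 180.1 and 31.1 to 51.2 CPM. Their part in the differences of the members was not tested.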

How the data were processed

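Colon macrophages of 4 mice were profiled by single cell RNA sequencing. The deposited values are UMI counts per gene and cell, which the authors made with Cell Ranger and STAR 2.6.1a on mm10, per the submitters' processing notes, before further steps in R 3.6, and the counts were not normalized. Per the study's methods, low-quality cells were filtered and doublets searched for, after which 943 cells remained, the number in the deposited counts. The study also left out cells not annotated as monocytes or macrophages. From its differential expression it left out a cluster with more mitochondrial reads, which it held to be most likely damaged or low-quality cells. No cells were removed here for their annotation or for belonging to that cluster. Cells in which 3 or more marker genes of 1 other class were detected were left out.

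UMI counts were summed per mouse and class and tested with edgeR 4.0.16 in R 4.3.3 (TMM, quasi-likelihood test, Benjamini-Hochberg adjustment over all genes tested, adjusted p under 0.05). A gene entered the test if it exceeded 1 CPM in 2 or more libraries and was detected in 5% of the cells. The comparison of the classes had the mouse as a block, since both classes came from the same animals. A share of UMIs is given per mouse with an exact binomial interval (scipy 1.17.1). DESeq2 1.42.0, other scalings, filters, class limits and leaving out each mouse were tried as alternatives. The test was checked on simulated data.

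The members and lists were chosen with earlier results of these data known. Named genes were the stalk genes, Rpsa, Rpl41, the paralogs with their parents, the 5 highest and 5 lowest members by CPM, up to 5 called members in each direction per comparison by p, and for DEP the 3 members with the largest fold change in each direction among those whose groups did not overlap. Rps6, Rpl4, Rps3 and Rpl27a, which also passed the test, were named after their values were seen. Some genes that these rules name are not reported here. Gene positions and sequences came from the annotation of GRCm38.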

Additional observations from a re-analysis of the deposited data

How the results depend on the processing

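In the comparison of the classes, 14 members were called in the fit reported, 56 with library size alone, 3 with DESeq2, 26 with C1q-high set at 1% of UMIs or more, and 22 with the cells in both classes counted in each. Over all 5146 genes tested 364 were higher (7.07%) and 573 lower (11.1%). There were 756 (14.7%) and 390 (7.58%) with library size alone and 195 (3.79%) and 294 (5.71%) with DESeq2. With C1q-high at 1% or more, 25 of the 26 members called were higher (7.80% of 5125 genes) and 1 lower (10.3%). With the cells in both classes counted in each, 21 of the 22 were higher (7.65% of 5114 genes) and 1 lower (9.13%). With cells thinned to 1000 UMIs only 2069 genes were tested, of which 157 were higher (7.59%) and 268 lower (13.0%). In that fit 7 members were called higher and 3 lower. Leaving out 1 mouse gave 7 to 15 member calls, with 8 without DEP mouse 14 and 7 without PBS mouse 3. Over all genes these fits called 5.32% to 6.92% higher and 8.39% to 10.3% lower. Without the replicate block 7 members were called higher (7.42% of genes) and 3 lower (11.6%). All of these were among the 14 called in the fit reported, and the interaction had 0 member calls in either fit. Calls were 4 higher (2.71% of genes) and 6 lower (5.72%) with no filter on low values. They were 5 (5.66%) and 5 (10.1%) with a Ccr2 UMI in place of Plac8, and 16 (7.94%) and 2 (10.2%) with all deposited cells. The difference in share between the classes was 4.22 percentage points, 3.79 with the cells in both classes counted in each and 4.10 to 4.42 leaving out 1 mouse. The difference in share between DEP and PBS was -0.124 percentage points over all macrophages, and turned to 0.142 without DEP mouse 15 and 0.644 without PBS mouse 3, in a range of -0.892 to 0.644. It was -0.648 without immunoglobulin genes in the marker list and -0.792 with all deposited cells. In Plac8-high cells it was -1.28, with -0.330 for a Ccr2 UMI in place of Plac8, -0.270 without the cells in both classes, and -1.93 to -0.618 leaving out 1 mouse. In C1q-high cells it was -0.741, with -1.45 to -0.0277 leaving out 1 mouse. The log2 fold change of Rps27rt over all macrophages turned to -0.0090 without PBS mouse 2, in a range of -0.0090 to 0.73 leaving out 1 mouse, and that of Rpl36 in Plac8-high cells to -0.037 with cells judged without immunoglobulin genes. The cause was not tested in any of these. No member was called between DEP and PBS under any alternative run. Genes not called between the classes could change sign with library size alone, as Rplp2 and Rpl41 did. The log2 fold change turned from -0.19 to 0.14 for Eef1a1, from -0.16 to 0.17 for Tpt1 and from -0.068 to 0.26 for Npm1. It turned from -0.038 to 0.29 for Rack1, from -0.19 to 0.14 for Rpl3 and from -0.28 to 0.053 for Rpl22l1. The choice without immunoglobulin genes was made after the data were seen. With 28 to 58 Plac8-high cells a mouse, depth limits the fold changes of single genes in that class. In the comparison of the classes and the interaction the limit is stronger, with 16 to 53 Plac8-high cells a mouse.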
